A study of Mus musculus with 2 samples.

Results

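The genes described are 10 heat shock chaperones, Hspa1a, Hspa1b, Hsph1, Dnajb1, Hsp90aa1, Hsp90ab1, Hspe1, Hspd1, Hspa8 and Hspb1, out of 31053 genes in the expression matrices of mouse colon cells. Each symbol matched 1 row in both matrices. The genes were chosen because earlier results of these data had shown several of them at different levels in the 2 libraries, so the ratios between the libraries are given as a description. The cells are from the colon of wild-type C57BL/6 mice. One library came from tissue after THC (delta-9-tetrahydrocannabinol, a cannabinoid receptor agonist of cannabis) at 10 mg/kg, and the other from tissue after vehicle. Tissue was treated first with EDTA, next with an enzyme mix of Dispase, DNAse and collagenase D, and the freed cells were enriched on a Percoll gradient and read by droplet sequencing from the 5′ end of each transcript. The sources used here do not give the number, age and sex of the mice or the schedule of dosing. With 1 library in each group no test of THC against vehicle can be made, and a difference between the libraries cannot be told apart from a difference between mice or between preparations.

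Heat shock chaperones bind proteins that are unfolded or not yet folded. Hsp70 proteins hold and release such clients with the help of Hsp40 partners, which deliver clients and start ATP hydrolysis, and of Hsp110 proteins, which exchange the nucleotide. Clients then pass to Hsp90, while small heat shock proteins hold unfolded protein without ATP. When cells are warmed, or when their proteins are damaged, heat shock factor 1 binds repeats of nGAAn in promoters and raises the inducible members. Enzymatic digestion of tissue is a known trigger of these genes. Hspa1a and Hspa1b encode the inducible Hsp70, Hspa8 the constitutive Hsp70, Hsph1 an Hsp110 and Dnajb1 an Hsp40. Hsp90aa1 is the inducible and Hsp90ab1 the constitutive cytosolic Hsp90, and Hspb1 is the small heat shock protein Hsp27 (Hsp25 in mice). Hspd1 (Hsp60) and Hspe1 (Hsp10) form the chaperonin of mitochondria, so the name cytosolic does not cover them.

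The upstream windows of 5 of the genes are shown because they carry the repeats that heat shock factors bind and because the first pair shows why Hspa1a and Hspa1b are hard to tell apart. Each is the 250 bases before the start of a transcript, from RefSeq on GRCm38.p6, 5′ to 3′ along the gene's strand. Capitals mark matches to 2 adjoining repeat units, GAANNTTC or TTCNNGAA, and in Hspe1 the 2 overlapping matches to 3 units, GAANNTTCNNGAA or TTCNNGAANNTTC.
Hspa1a (chr17:34972157-34972406, minus strand): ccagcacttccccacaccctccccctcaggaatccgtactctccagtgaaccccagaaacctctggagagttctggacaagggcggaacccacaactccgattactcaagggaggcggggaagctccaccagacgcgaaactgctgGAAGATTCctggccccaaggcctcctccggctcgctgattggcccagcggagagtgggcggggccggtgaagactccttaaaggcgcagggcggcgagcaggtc
Hspa1b (chr17:34959239-34959488, minus strand): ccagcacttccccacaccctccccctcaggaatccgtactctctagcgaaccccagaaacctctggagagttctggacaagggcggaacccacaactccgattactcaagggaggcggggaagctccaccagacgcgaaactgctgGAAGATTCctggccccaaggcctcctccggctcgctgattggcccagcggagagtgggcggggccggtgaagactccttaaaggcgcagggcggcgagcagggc
Hsph1 (chr5:149636337-149636586, minus strand): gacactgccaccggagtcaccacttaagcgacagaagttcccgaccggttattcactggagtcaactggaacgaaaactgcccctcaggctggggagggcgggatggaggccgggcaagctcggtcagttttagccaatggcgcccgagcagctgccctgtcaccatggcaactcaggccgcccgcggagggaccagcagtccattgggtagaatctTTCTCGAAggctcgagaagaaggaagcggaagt
Hspe1 (chr1:55087898-55088147, plus strand): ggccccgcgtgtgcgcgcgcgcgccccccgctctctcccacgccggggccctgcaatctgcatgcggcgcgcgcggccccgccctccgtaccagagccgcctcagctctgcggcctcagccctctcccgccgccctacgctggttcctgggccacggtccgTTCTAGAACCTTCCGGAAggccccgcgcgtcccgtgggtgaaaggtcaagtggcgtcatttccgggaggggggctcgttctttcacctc
Hspb1 (chr5:135887669-135887918, plus strand): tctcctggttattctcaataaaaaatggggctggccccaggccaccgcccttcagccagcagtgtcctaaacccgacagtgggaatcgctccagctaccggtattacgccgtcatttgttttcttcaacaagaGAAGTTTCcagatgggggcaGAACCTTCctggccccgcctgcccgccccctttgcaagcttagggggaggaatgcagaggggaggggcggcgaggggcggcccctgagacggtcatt

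Promoter windows were found for 7 of the 10 genes, 10 windows in all. Hsp90aa1, Hsp90ab1 and Hspa8 were not matched. A match to 2 units on either strand was found in 7 of the 10 windows, from 6 genes, against 12.8% of 32851 windows of this length over all genes. Windows of 1 gene can overlap. Every match to 3 units also holds a match to 2. The 3-unit match was found in 2 of the 10 windows, that of Hspe1 and 1 of the 2 of Hspd1, against 0.466% of all windows. Those 2 genes are neighbours transcribed away from each other, and both windows cover the same stretch. In Hspa1a and Hspa1b the match GAAGATTC lay 104 to 97 bases before the start. In Hsph1 the match TTCTCGAA lay 33 to 26 bases before it, and Hspb1 held 2 matches, at 117 to 110 and at 97 to 90 bases. Both Dnajb1 windows held no match, and the second of them lies downstream of the transcript start that the first precedes. A match says only that these letters are in the window.

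Hspa1a and Hspa1b are near-copies. Their coding sequences differed at 10 of 1926 aligned positions, their promoter windows at 3 of 250 and the stretch before the coding sequence at 3 of 231, whereas the stretch after it was 51.6% identical. Reads from the 5′ end fall in the part that is nearly the same. The sources used here do not say how the counting split such reads, and the 2 genes were added up and are called the Hsp70 pair. Values for either alone are uncertain, and the counts of genes past 1.5-fold given below score both as separate genes.

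The rule kept barcodes with at least 1000 UMIs (unique molecular identifiers, each a counted transcript molecule), at least 200 genes and under 10% of UMIs from mitochondrial genes. It kept 396 barcodes in the THC library and 630 in the vehicle library. After removal of 1 and 2 called doublets, 395 and 628 cells remained, with a median of 8529 and 7101.5 UMIs per cell. No barcode was shared between the libraries. The THC matrix lists 737280 barcodes, empty droplets included, and the vehicle matrix 973, none under 502 UMIs. Clustering without the chaperone, stress and early response genes gave 22 clusters, and canonical markers named 14 classes. One cluster, led by Bmp2, Nrg1 and Procr, stayed unnamed. Classes with at least 20 cells in both libraries were fibroblast-like (80 THC and 136 vehicle cells), epithelial-like (89 and 130), B-like (37 and 69), goblet-like (40 and 65), smooth muscle-like (40 and 47) and T-like (23 and 31). These 6 carry the account, and fibroblast-like and epithelial-like cells, with more than 50 in both libraries, carry most of it. Levels (CPM) are UMIs of a gene for each 1000000 UMIs of a class in a library. Intervals in brackets are exact 95% intervals for counting error only. They leave out the spread between cells and between mice. Levels were compared between classes within 1 gene and never between genes, since CPM is not scaled by transcript length.

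Among these 6 classes the Hsp70 pair was highest in fibroblast-like cells in both libraries, at 916 CPM in the THC library and 1952 CPM in the vehicle library. It was lower in the THC library in 5 of the 6 classes. In fibroblast-like cells 529 THC and 1958 vehicle UMIs of the pair were counted, which gave a log2 ratio of THC to vehicle of -1.09 (-1.23 to -0.95). In smooth muscle-like cells the pair stood at 453 and 823 CPM, a log2 ratio of -0.86 (-1.09 to -0.63). Both are stromal classes with the pair in most of their cells. Epithelial-like cells held 320 and 596 CPM, a log2 ratio of -0.90 (-1.05 to -0.75). Goblet-like cells, the mucus-secreting epithelium, held 109 and 224 CPM, a log2 ratio of -1.04 (-1.47 to -0.61). B-like cells held 470 and 1197 CPM, a log2 ratio of -1.35 (-1.78 to -0.93). T-like cells went the other way, with 47 UMIs in the THC library and 12 in the vehicle library, 483 and 117 CPM and a log2 ratio of 2.05 (1.11 to 3.10). Of those 47 UMIs, 33 (70.2%) were in 1 cell, and without the richest cell of each library the log2 ratio was 0.72.

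**Figure D1:**
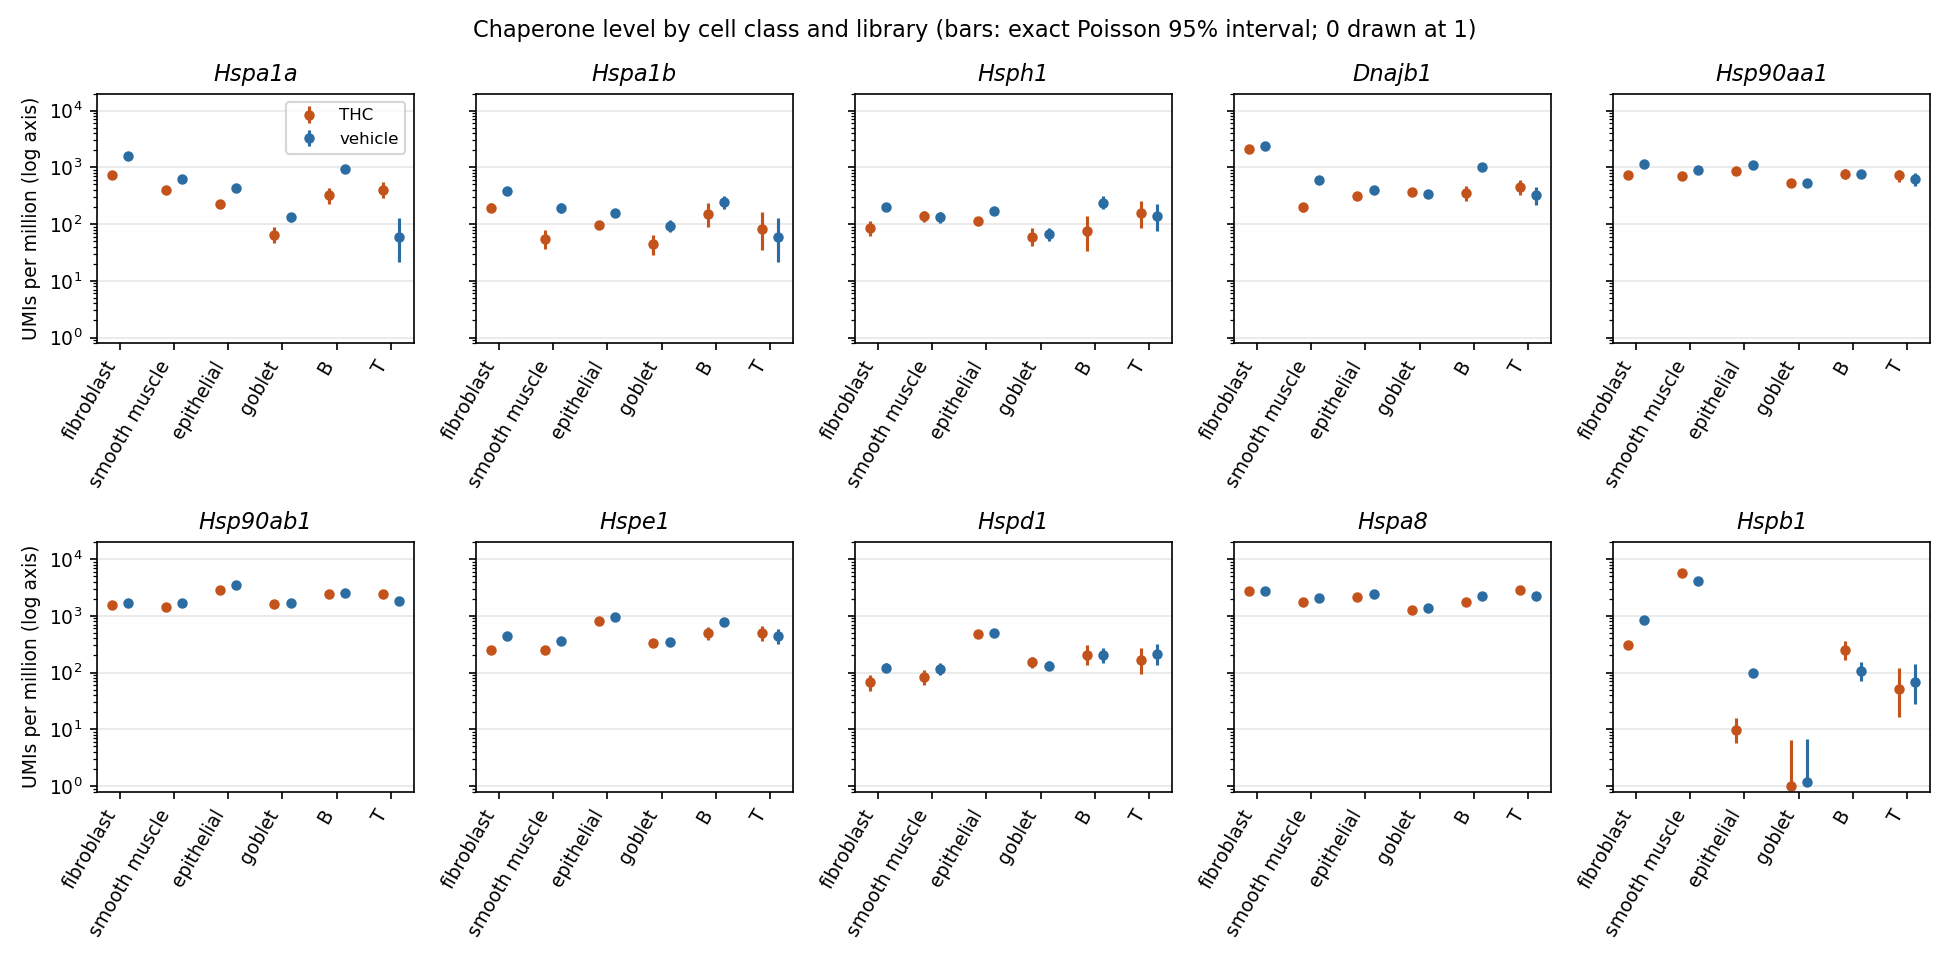
Level of each chaperone in the 6 classes with at least 20 cells in both libraries, as CPM on a log axis with exact Poisson 95% intervals (orange THC, blue vehicle; a level of 0 is drawn at 1). Dnajb1 stands out in fibroblast-like cells in both libraries (2134 and 2372) and Hspb1 in smooth muscle-like cells (5683 and 4101), whereas Hsp90aa1 spans 1.59-fold in the THC library.

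Other classes had under 20 cells in at least 1 library. In the order THC then vehicle, the pair stood at 1010 and 1511 CPM in endothelial-like cells and at 632 and 1107 CPM in macrophage-like cells. In the THC library several populations under 20 cells stood above the fibroblast-like cells in the pair. Those of endothelial-like cells, interstitial cells of Cajal-like cells and the unnamed cluster were not separated from them beyond counting error. In interstitial cells of Cajal-like cells, the pacemaker cells of gut muscle, it stood at 1115 and 1330 CPM. The unnamed cluster held 1038 and 3768 CPM, from 13 and 20 cells. That cluster carried 7 of the fibroblast markers, Col1a1, Col1a2, Col3a1, Lum, Pdgfra, Col6a1 and Adamdec1, but its leading genes held none of them. It stayed unnamed because its leading genes held Il1rl1, an innate lymphoid marker, and no fibroblast marker. Levels of the pair in these 4 populations were all lower in the THC library, and the interval of the log2 ratio in interstitial cells of Cajal-like cells, -0.54 to 0.03, included 0. Pericyte-like cells were lower too, at 467 and 1132 CPM. Mesothelial-like cells, 5 and 2 in number, went the other way, at 1985 and 934 CPM. So did plasma-like cells, with 15 UMIs of the pair in the THC library and 3 in the vehicle library. Dendritic-like cells held 24 UMIs of the pair in the THC library and 1 in the vehicle library.

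Fibroblast-like cells showed lower levels in the THC library for most of the inducible members and near-equal levels for the constitutive ones. Of the 10 genes, 7 were at least 1.5-fold lower in the THC library, where 5.04% of the 4127 genes with at least 50 UMIs were. None of the 10 was 1.5-fold higher, where 4.97% of all genes were. All 10 log2 ratios were below 0, as were 49.1% of those of all genes. The median log2 ratio was -0.83 over the 10 genes and 0.01 over all genes. Since the genes were chosen on this contrast, these counts describe the choice and support nothing further.

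Among the partners of Hsp70 in fibroblast-like cells, Hsph1, the nucleotide exchange factor, stood at 84.8 CPM (THC) and 199 CPM (vehicle). Its log2 ratio was -1.23 (-1.71 to -0.78), close to that of the pair. Dnajb1, the Hsp40 that works with inducible Hsp70, stood at 2134 and 2372 CPM, with a log2 ratio of -0.15 (-0.25 to -0.05). Dnajb1 thus differed far less than the pair it serves. Hspa8, the constitutive Hsp70, stood at 2758 and 2770 CPM, a log2 ratio of -0.01 (-0.10 to 0.08).

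Of the Hsp90 genes in fibroblast-like cells, the inducible Hsp90aa1 stood at 720 and 1154 CPM, a log2 ratio of -0.68 (-0.84 to -0.52). The constitutive Hsp90ab1 stood at 1554 and 1676 CPM, a log2 ratio of -0.11 (-0.23 to 0.01). Inducible and constitutive genes were thus parted in the Hsp90 family as in the Hsp70 family. The chaperonin genes Hspe1, at 254 and 449 CPM, and Hspd1, at 67.5 and 122 CPM, had log2 ratios of -0.82 (-1.10 to -0.55) and -0.85 (-1.41 to -0.32). Hspb1, the small heat shock protein, had the lowest ratio of the 10 at 308 and 852 CPM, a log2 ratio of -1.47 (-1.71 to -1.23). It lay in 23 of 80 and 49 of 136 cells, and the 10% of cells richest in Hspb1 held 87.1% and 81.8% of its UMIs. In the THC library 28.7% were in 1 cell. Cells with Hspb1 held a summed 1133 CPM of the smooth muscle markers (9 of 10 found) in the THC library and 689 CPM (8 of 10) in the vehicle library, against 264 and 430 CPM in the cells without it (9 of 10 in both). The part of smooth muscle RNA in the Hspb1 ratio was not tested.

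With cells thinned to 1000 UMIs, 4 genes instead of 7 were 1.5-fold lower, and Hspa1b alone reached a log2 ratio of 0.03. The minimum of 50 UMIs was applied again to the thinned counts, so a gene could leave this count without a smaller ratio. After thinning, Hsph1 was found in only 3 THC and 19 vehicle cells, and Hspd1 in 2 and 19. An alternative chosen after seeing the data left out the 10% of cells richest in the gene measured. Dnajb1 then reached 0.16 without its own richest cells, and the pair -0.97 without its own. In the cells outside the 10% richest in the pair, Dnajb1 stood at 2058 CPM (THC) and 2023 CPM (vehicle).

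**Figure D2:**
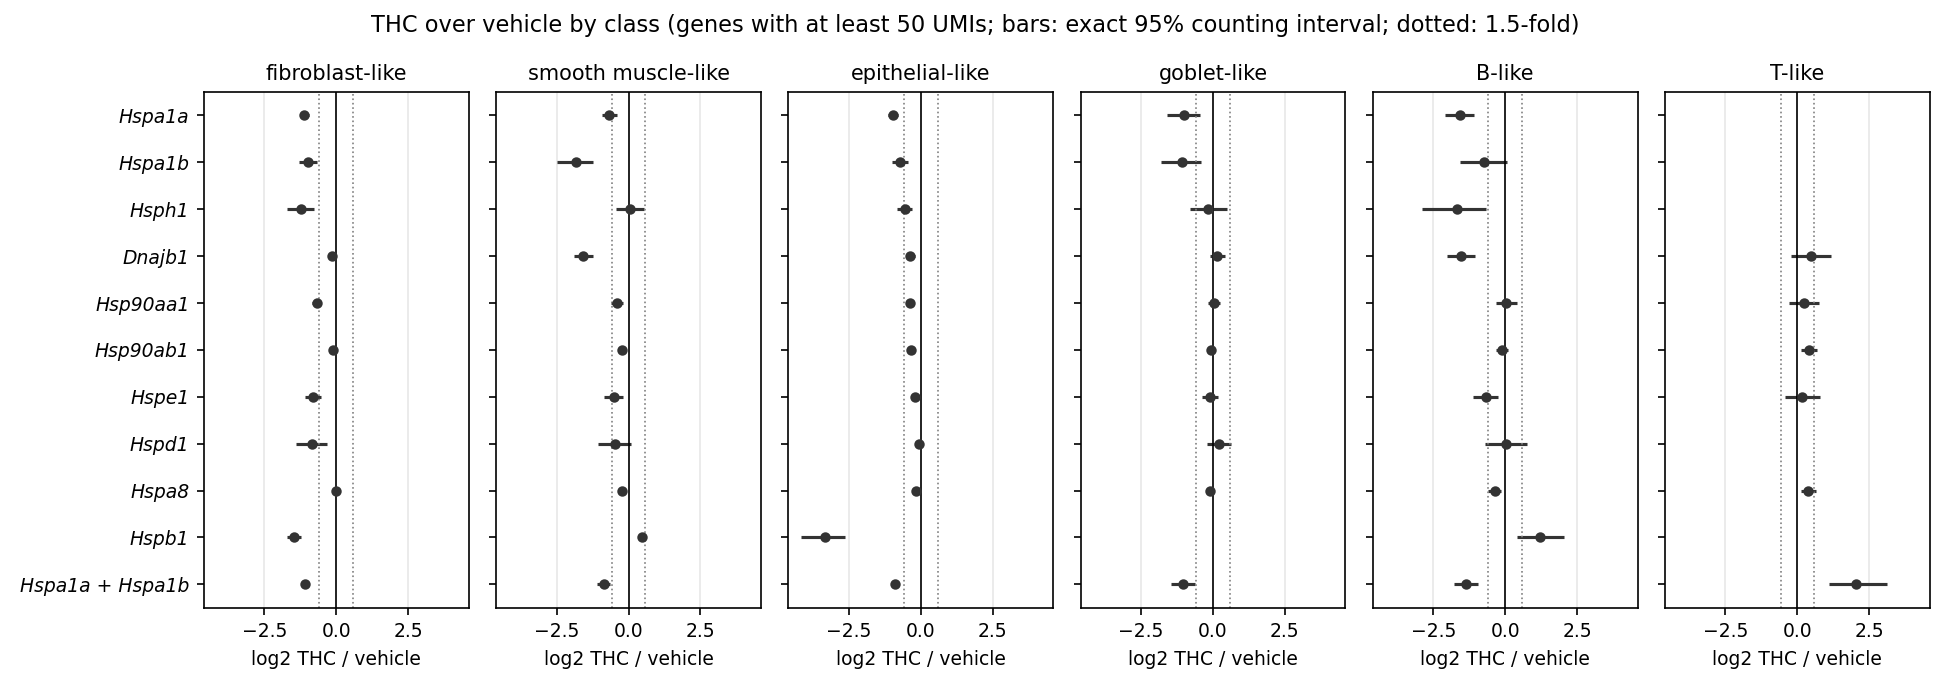
Log2 ratio of the THC to the vehicle library for each chaperone and the Hsp70 pair in 6 classes, for genes with at least 50 UMIs, with exact 95% counting intervals; dotted lines mark 1.5-fold. The pair sits left of the lower 1.5-fold line in 5 classes, between -1.35 and -0.86, and at 2.05 in T-like cells.

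The subgroups of fibroblast-like cells did not share 1 pattern. In the cluster led by Igfbp3, Sfrp1 and Adamdec1 (48 and 80 cells) the pair stood at 1131 and 2641 CPM, Dnajb1 at 2226 and 2786 CPM and Hspb1 at 164 and 821 CPM. In the cluster led by Has1, Gfpt2 and Pi16 (25 and 51 cells) the pair stood lower, at 534 and 793 CPM, and Dnajb1 was higher in the THC library, at 2481 against 1566 CPM. A small cluster led by Ces1d (7 and 5 cells) held 575 and 3007 CPM of the pair and 287 and 4050 CPM of Dnajb1. The near-equal level of Dnajb1 over all fibroblast-like cells was thus a sum of opposite differences in its clusters, whereas the pair was lower in the THC library in each of the 3.

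The libraries differed in the upper levels of the pair more than in the share of cells that held it. Of the fibroblast-like cells, 64 of 80 (80%, exact interval 69.6 to 88.1) held a UMI of the pair in the THC library and 105 of 136 (77.2%, 69.2 to 84.0) in the vehicle library. With each cell thinned to 1000 UMIs the shares were 52.5% and 55.9%. The median cell held 5.14 and 6.43 UMIs of the pair per 10000, the 90th percentile was 28.5 and 61.4 and the highest cell 97.7 and 255. Medians were therefore close and upper ends were not. At least 20 per 10000 were found in 20% (11.9 to 30.4) and 33.1% (25.3 to 41.7) of cells, and at least 50 in 2 of 80 and 17 of 136 cells. Within 20% of the limit of 20 lay 7 THC and 8 vehicle cells. These limits are points on a range of levels and define no cell type.

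**Figure D3:**
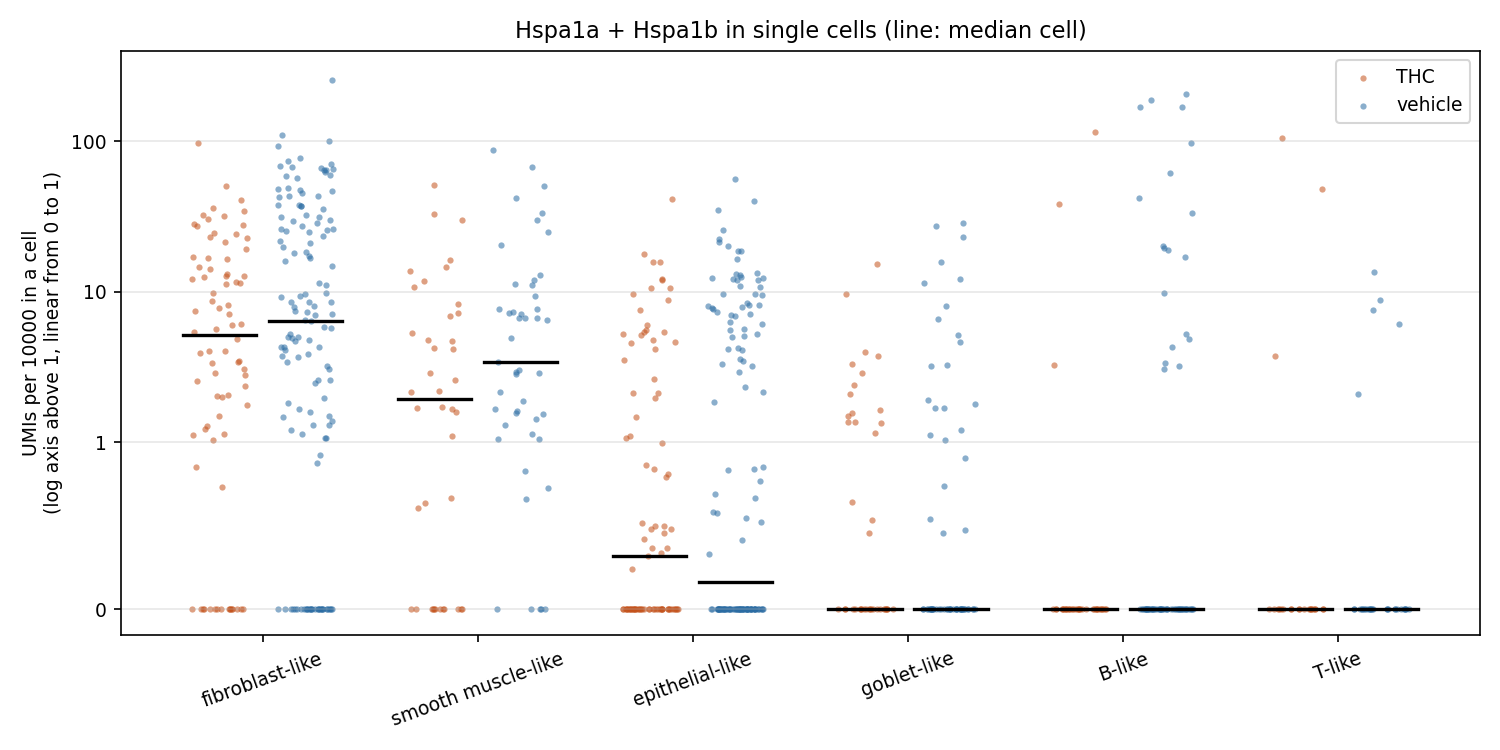
UMIs of Hspa1a and Hspa1b per 10000 UMIs in each cell, by class and library (orange THC, blue vehicle; the axis is linear from 0 to 1 and log above; lines mark the median cell). Fibroblast-like medians are close (5.14 and 6.43) while the highest vehicle cell reaches 255 and the highest THC cell 97.7; in goblet-like, B-like and T-like cells the median is 0.

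The 10% of fibroblast-like cells richest in the pair also held more Hsph1, Hsp90aa1 and Dnajb1. In the vehicle library, the 14 richest cells held 5761 CPM of Dnajb1 and the other 122 held 2023 CPM. Hsph1 stood at 631 CPM in the richest cells and 155 CPM in the others, and Hsp90aa1 at 3388 and 924 CPM. Of the constitutive genes, Hsp90ab1 stood at 2170 and 1625 CPM and Hspa8 at 4585 and 2583 CPM. Hspd1 stood at 214 and 112 CPM, so every one of the other 8 genes was higher in the richest vehicle cells. In the THC library, the 8 richest cells and the 72 others held 291 and 67.5 CPM of Hsph1, 1903 and 621 CPM of Hsp90aa1 and 3045 and 2058 CPM of Dnajb1. Hspe1 was 1080 and 384 CPM in the vehicle library but 269 and 253 CPM in the THC library. Hspb1 parted from the pair in the THC library, at 44.8 CPM in the richest cells and 330 CPM in the others, against 1988 and 736 CPM in the vehicle library. The 8 richest THC cells were shallower, with a median of 3791 UMIs against 7502.5 in the others. In the vehicle library the medians were 6231.5 and 7522.5.

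**Figure D4:**
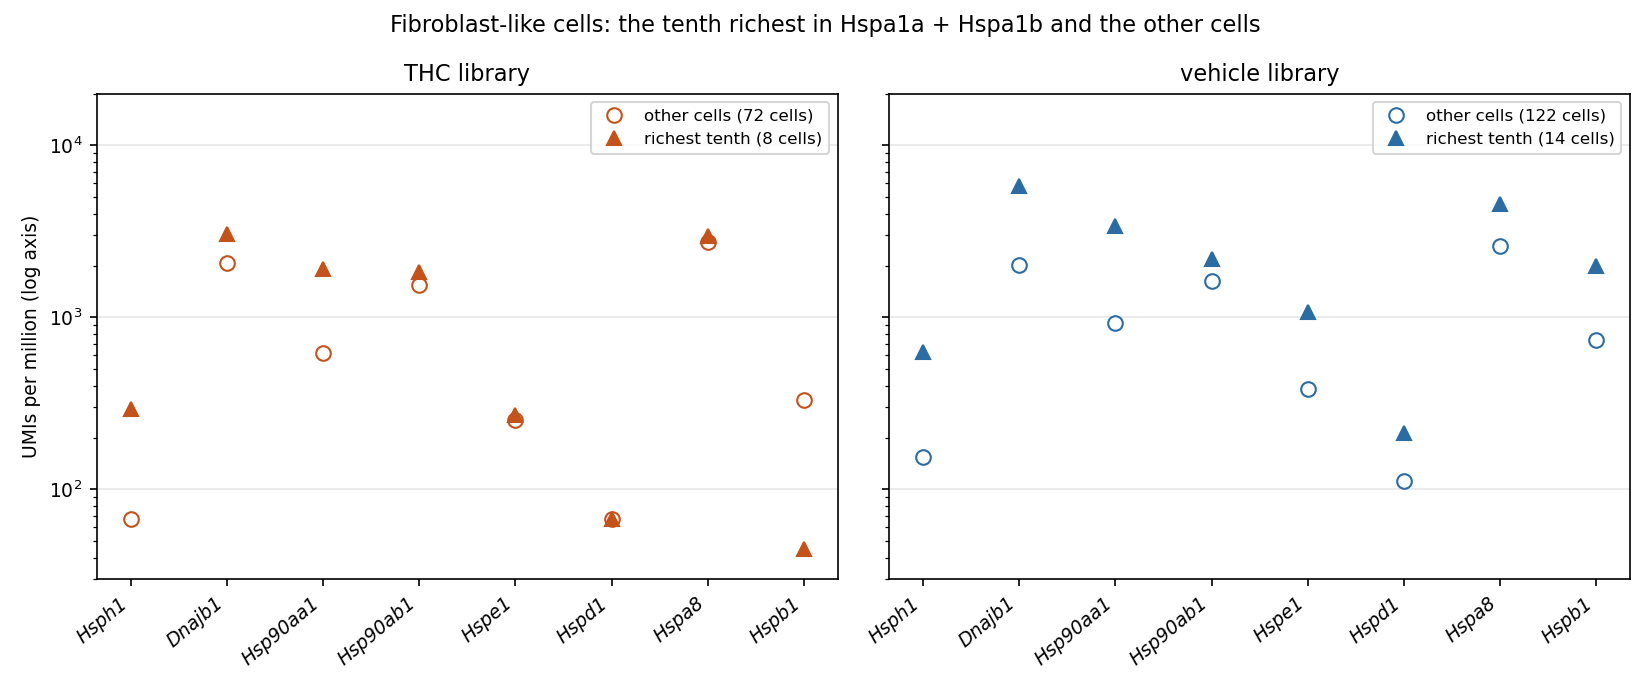
Levels of the other 8 chaperones in the 10% of fibroblast-like cells richest in the Hsp70 pair (filled triangles) and in the other cells (open circles), as CPM on a log axis, for the THC library (8 and 72 cells) and the vehicle library (14 and 122 cells). Hsph1 and Hsp90aa1 are higher in the richest cells of both libraries, and Hspb1 is higher in the vehicle library (1988 against 736) and lower in the THC library (44.8 against 330).

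Across single fibroblast-like cells, the pair per 10000 UMIs went with Hsp90aa1 at a Spearman rho of 0.48 in the THC library and 0.70 in the vehicle library. For Hsph1 rho was 0.28 and 0.61, for Dnajb1 0.26 and 0.50 and for Hspa8 0.32 and 0.61. These values describe 80 and 136 cells that share a library and a depth per cell. Hspd1 gave -0.15 and 0.12. The summed immediate early genes, such as Fos and Jun, gave 0.23 and 0.42, and the depth of the cell gave -0.15 and 0.01. In epithelial-like cells the pair went with Hsp90aa1 at 0.51 and 0.52, but also with depth at 0.37 and 0.49, and with the immediate early genes at -0.16 and -0.36. The pair went with the immediate early genes at 0.62 and 0.68 in smooth muscle-like cells (40 and 47) and at -0.55 and -0.37 in goblet-like cells (40 and 65). The sign of this relation thus differed between classes.

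Epithelial-like cells held the highest levels of the chaperonin genes and of Hsp90ab1 among these 6 classes. Of the 10 genes, 3 were at least 1.5-fold lower in the THC library (Hspa1a, Hspa1b and Hspb1), where 5.12% of 7113 genes were, and none was 1.5-fold higher, where 3.47% were. All 10 log2 ratios were below 0, against 49.6% of those of all genes, and their median was -0.37 against 0.00. THC epithelial-like cells were deeper, with a median of 20061 UMIs per cell against 14165.5. What part this depth had in the ratios was not tested.

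Hsph1 stood at 114 and 167 CPM in THC and vehicle epithelial-like cells, a log2 ratio of -0.55 (-0.82 to -0.29). Dnajb1 stood at 310 and 399 CPM, a log2 ratio of -0.36 (-0.53 to -0.20). Hsp90aa1 stood at 848 and 1106 CPM and Hsp90ab1 at 2818 and 3535 CPM, with log2 ratios of -0.38 and -0.33. Both Hsp90 genes thus differed to a like extent here, unlike in fibroblast-like cells. Hspa8 stood at 2130 and 2412 CPM, a log2 ratio of -0.18. Hspe1 stood at 821 and 951 CPM, a log2 ratio of -0.21, and Hspd1 at 483 and 500 CPM, a log2 ratio of -0.05 (-0.19 to 0.09). Thinning to 1000 UMIs, with the minimum of 50 UMIs applied again, left 1 gene 1.5-fold lower and the pair at -0.49. After thinning, Hspb1 was found in only 1 THC and 4 vehicle cells. A mitochondrial limit of 5% gave -1.70 for the pair and 0.43 for Hspe1, and clustering each library alone gave -2.26 for the pair and 9 genes 1.5-fold lower.

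The pair was in 51.7% and 50% of epithelial-like cells, and in 15.7% and 22.3% after thinning. It was uneven across the epithelium. The cycling cluster led by Ube2c, Mki67 and Hist1h1a held 353 and 514 CPM of the pair, and the cluster led by Kcnq1 and Edn1 held 601 and 711 CPM. The cluster led by Muc3, Hoxb13 and Krt36 held 98.4 and 392 CPM, and the cluster led by Fabp6, Reg3b and Car1 held 304 and 950 CPM. Levels were lower in the THC library in each of the 4. Hspd1 was highest in the Kcnq1 cluster in both libraries, at 713 and 619 CPM, and the cycling cluster, at 634 and 610 CPM, was not separated from it beyond counting error.

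Hspb1 in epithelial-like cells rested on few cells. In the THC library 17 UMIs were counted in 7 of 89 cells, and in the vehicle library 175 UMIs in 13 of 130 cells, of which 65 (37.1%) were in 1 cell. The log2 ratio was -3.34 (-4.16 to -2.62). The 13 vehicle cells held all 10 smooth muscle markers, at a summed 6369 CPM, against 55.7 CPM in the other 117 cells. The 7 THC cells held 5 of the 10, at 59.8 CPM, and the other 82 held 8 at 64.9 CPM. Of the 14 endothelial markers the same 7 THC cells held 9, at 412.6 CPM. The part of RNA from other cell types in the epithelial-like Hspb1 value was not tested. In the cells without Hspb1 the pair stood at 315 and 499 CPM.

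Of the 6 classes, smooth muscle-like cells held the most Hspb1, which binds actin filaments. Its THC and vehicle levels were 5683 and 4101 CPM, a log2 ratio of 0.47 (0.39 to 0.55), and 18.4% of the THC UMIs were in 1 cell. Median cells held 32.5 and 29.6 UMIs per 10000, and 38 of 40 and 47 of 47 cells held a UMI. In the cluster led by Actg2, Des and Cnn1 (25 and 27 cells) Hspb1 stood at 6481 and 4948 CPM and the pair at 311 and 533 CPM. In the cluster led by Hhip and Actc1 (15 and 20 cells) Hspb1 stood at 2195 and 1843 CPM and the pair at 1073 and 1596 CPM. The pair and Hspb1 thus ran in opposite orders between the muscle clusters. In the vehicle library the next highest class for Hspb1 with at least 20 cells was endothelial-like, at 2705 CPM. Smaller vehicle classes held more, such as interstitial cells of Cajal-like cells at 4926 CPM and the 2 mesothelial-like cells at 5153 CPM. THC levels of these classes, 4134 and 1661 CPM, were below that of smooth muscle-like cells.

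Of the 10 genes, 3 were at least 1.5-fold lower in THC smooth muscle-like cells, where 7.35% of 2954 genes were, and none was 1.5-fold higher, where 3.05% were. The 3 were Hspa1a, Hspa1b and Dnajb1. The median log2 ratio was -0.44 over the 10 and -0.06 over all genes. Dnajb1 stood at 198 and 586 CPM, a log2 ratio of -1.57 (-1.90 to -1.25), far from its ratio in fibroblast-like cells. Hsph1 stood at 137 and 131 CPM, a log2 ratio of 0.06. With Hspb1 higher and the pair lower, the 10 genes together stood at 10697 and 10794 CPM. Thinning took the pair to -0.19 and Hspa1a alone to 0.03.

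In goblet-like cells only the genes of the Hsp70 pair passed 1.5-fold. Of 9 genes with at least 50 UMIs, Hspa1a and Hspa1b were 1.5-fold lower in the THC library, where 4.6% of 3715 genes were, and none was 1.5-fold higher, where 5.33% were. The other 7 had log2 ratios between -0.16 and 0.21. Their median cell held no UMI of the pair in either library, and in the vehicle library 80.3% of the pair's UMIs lay in 7 cells. Without the richest 10% of cells the log2 ratio of the pair was 0.37, so the lower value in the THC library rested on those cells. Hspb1 was found in none of the 40 THC cells and in 1 of 65 vehicle cells, and these cells serve as a class that lacks the gene. At their depth a count of 0, read as up to 3 UMIs, allows up to 5.28 CPM of Hspb1.

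B-like cells held the pair in few cells at a high level. In the THC library 3 of 37 cells had a UMI of the pair, and in the vehicle library 19 of 69 had one. Of the 10 genes, 5 were 1.5-fold lower in the THC library (Hspa1a, Hspa1b, Hsph1, Dnajb1 and Hspe1), where 8.86% of 880 genes were. Dnajb1 stood at 355 and 1021 CPM, a log2 ratio of -1.52 (-2.03 to -1.05). Hspe1 stood at 495 and 787 CPM, a log2 ratio of -0.67 (-1.11 to -0.24). Only Hspb1 was 1.5-fold higher in the THC library, where 7.73% of genes were. All 30 of its THC UMIs were in 1 cell, which also held 40 of the 57 UMIs of the pair. That cell had 3454 UMIs, all 10 B markers and none of the smooth muscle, fibroblast or epithelial markers. It held 1 of the 14 endothelial markers, at 868.6 CPM, against 34.0 CPM in the other 36 THC B-like cells. The part of RNA from other cell types in its Hspb1 was not tested. Without the cell richest in the pair in each library the log2 ratio of the pair was -2.72.

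The 7 vehicle B-like cells richest in the pair held 7189 CPM of Dnajb1 and 2006 CPM of Hsph1. The other 62 held 531 and 97.4 CPM. Both genes were thus higher in the B-like cells rich in the pair, as they were in the fibroblast-like cells. Hspe1, at 3845 and 544 CPM, was higher there too, as it was in vehicle fibroblast-like cells, at 1080 and 384 CPM. In THC fibroblast-like cells it was near equal, at 269 and 253 CPM.

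In T-like cells 5 of the genes had at least 50 UMIs, and all 5 had log2 ratios above 0, where 45.7% of all genes were below 0. None was 1.5-fold lower in the THC library, where 7.51% of 519 genes were, or higher, where 6.17% were. Hsp90ab1 stood at 2436 and 1858 CPM, a log2 ratio of 0.39 (0.11 to 0.67). Hspa8 stood at 2868 and 2209 CPM, a log2 ratio of 0.38 (0.12 to 0.64). The cell with 33 UMIs of the pair also held 18 of Dnajb1, 19 of Hsp90aa1 and 41 of Hspa8. When the libraries were clustered apart, Hsp90ab1 and Hspa8 had log2 ratios of -0.18 and -0.23.

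The genes differed in how widely they varied between classes. The fold from the lowest to the highest class was 1.59 in the THC library and 2.22 in the vehicle library for Hsp90aa1, and 2.23 and 3.06 for Hspa8. These folds run over 6 classes in the THC library and 8 in the vehicle library, where endothelial-like and macrophage-like cells also had at least 20 cells. The unnamed cluster, with 20 vehicle cells, is left out of these orders. For Dnajb1 they were 10.8 in both libraries, for the pair 8.39 and 16.7 and for Hspd1 7.16 and 4.30. Dnajb1 and the pair were highest in fibroblast-like cells, Hspd1 and Hspe1 in epithelial-like cells and Hspb1 in smooth muscle-like cells, among these named classes in both libraries. In the unnamed cluster the vehicle level of the pair, 3768 CPM, was above that of fibroblast-like cells, 1952 CPM. Several neighbours in these orders were not separated beyond counting error. Epithelial-like and B-like Hspe1 in the vehicle library overlapped in their intervals, as did the epithelial-like and T-like levels of Hsp90ab1 in the THC library. Among the 8 named classes of the vehicle library the endothelial-like cells held the most Hspa8, at 4210 CPM, and the unnamed cluster held 4624 CPM.

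Free RNA was measured in 105814 THC barcodes with under 100 UMIs, and the vehicle matrix holds no such barcodes. The pair made up 168 CPM there against 485 CPM in the THC cells, Dnajb1 208 against 654 and Hspb1 340 against 1007. Hsp90ab1 made up 1196 against 2142 CPM and Hspa8 1256 against 2174. The level of the pair in THC goblet-like cells, 109 CPM, was below that of the free RNA. So was Hspd1 in THC fibroblast-like cells, at 67.5 against 203 CPM. In those cells Hspb1 (308 against 340), Hsph1 (84.8 against 90.5) and Hspe1 (254 against 243) were not separated from free RNA beyond counting error. Their other chaperone levels were above it. The part of free RNA in the ratios was not tested.

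Genes whose level followed that of the pair most closely over 14 class and library units were named by their correlation on log2 CPM, among 6584 genes. The highest were Tcf4 (0.87), Gabarap (0.82), Abhd4 (0.82), Fam76a (0.81), Cetn3 (0.81) and Snapin (0.81). Of the members, Hsp90aa1 came next at 0.79, whereas Hsp90ab1 stood at 0.16 and Hspd1 at -0.27. Of 46 heat shock partner genes compared, 1 (St13, a partner of Hsp70) was among the 50 closest.

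The other genes of the pathway showed no shared direction. Of 35 measured heat shock partners in fibroblast-like cells, 18 had lower and 17 higher THC levels, and their median log2 ratio was 0.00. Past 1.5-fold were 3 of them, all lower, where 5.04% of all genes were 1.5-fold lower: Dnaja4 (-1.12) and Dnajb4 (-0.73), both Hsp40s, and the Hsp90 partner Chordc1 (-0.83). The small heat shock protein Cryab was higher, at 296 and 212 CPM, a log2 ratio of 0.48 (0.18 to 0.78), while Hspb1 was lower in the same cells. In epithelial-like cells 1 of 39 partners was 1.5-fold lower, where 5.12% of all genes were. It was the transcription factor Hsf1, at 40 and 67 UMIs and a log2 ratio of -0.72 (-1.33 to -0.14).

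In smooth muscle-like cells 3 of 39 partners were 1.5-fold lower, the Hsp40s Dnaja4 (-1.20) and Dnaja1 (-0.83) and the Hsp70 partner Bag3 (-0.75), where 7.35% of all genes were. Trap1 (0.76) and Dnajb5 (0.73) were higher, where 3.05% of all genes were. Both shares are near those of all genes. In goblet-like cells 2 of 30 were lower, Cacybp (-1.17) and Sugt1 (-0.72), against 4.6% of all genes. In B-like cells 3 of 13 were lower and 1 higher, against 8.86% and 7.73%, and in T-like cells none of 4 passed 1.5-fold.

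Chaperones of the endoplasmic reticulum answer to other regulators. The list of 19 genes used for them also holds Xbp1, Atf4, Ddit3 and Herpud1, which are not chaperones. In fibroblast-like cells 16 of 19 had lower and 3 higher THC levels, where 49.1% of all genes were lower, and their median log2 ratio was -0.15. Creld2 (-0.83), Sdf2l1 (-0.81) and Hyou1 (-0.62) were 1.5-fold lower, where 5.04% of all genes were. In epithelial-like cells 17 of 19 were higher and 2 lower, where 49.6% of all genes were lower, with a median of 0.19 and none past 1.5-fold. Among them Hsp90b1, the Hsp90 of the reticulum, had a log2 ratio of 0.43 (0.29 to 0.57), while both cytosolic Hsp90 genes were lower in the same cells. In smooth muscle-like cells 1 of 13 was 1.5-fold lower, against 7.35% of all genes, and in goblet-like cells none of 19 passed 1.5-fold. B-like cells had 1 of 9 higher, against 7.73% of all genes, and T-like cells had 1 of 7 lower and 1 higher, against 7.51% and 6.17%.

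Immediate early genes, which also respond to tissue digestion, went with the pair in some classes and against it in others, and the part of digestion in any ratio was not tested. In fibroblast-like cells 20 of 23 had higher and 3 lower THC levels, where 49.1% of all genes were lower. Their median log2 ratio was 0.26 and none passed 1.5-fold. Dusp1 (0.57), Fosb (0.56) and Klf2 (0.54) were the highest. In epithelial-like cells 2 of 22 were 1.5-fold lower, Myc (37.2 and 74.4 CPM) and Ier3 (115 and 180 CPM), where 5.12% of all genes were, and the median log2 ratio was -0.08. In smooth muscle-like cells 13 of 19 had lower THC levels, where 57.9% of all genes did, with a median of -0.22. Past 1.5-fold were 1 lower, Klf6 (-0.98), and 1 higher, Klf2 (0.86), against 7.35% and 3.05% of all genes. In goblet-like cells 1 of 21 was 1.5-fold higher, Klf2, where 5.33% of all genes were. B-like cells had 3 of 14 lower, among them Egr1 (-1.86), and 3 higher, among them Klf2 (2.65), against 8.86% and 7.73% of all genes. T-like cells had 1 of 11 lower, Fosl2 (-1.58), and 4 higher, among them Jun (1.95), against 7.51% and 6.17%.

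Other stress genes, of oxidative, metal and DNA damage responses, had log2 ratios above 0 for 10 of 12 genes in fibroblast-like cells, where 49.1% of all genes were below 0, and none passed 1.5-fold. In epithelial-like cells 2 of 12 were 1.5-fold lower, Gadd45g (-1.63) and Gadd45b (-0.91), and 1 higher, Txnrd1 (0.60), against 5.12% and 3.47% of all genes. In goblet-like cells 2 of 9 were lower and 2 higher, among the latter the metal-binding gene Mt1 (1.16), against 4.6% and 5.33%. Smooth muscle-like cells had none of 7 past 1.5-fold and T-like cells none of 2, while 1 of 3 was higher in B-like cells, against 7.73% of all genes.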

How the data were processed

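Gene expression was read from 2 libraries of colon cells. The deposited matrices hold raw UMI counts per gene and barcode, and the deposited lists of gene and barcode names other than counts, made with Cell Ranger 3.0.2 per the file headers. Seurat and bcl2fastq are listed too, per the submitters' processing notes. The genome build stays not given in the sources used here. All of the 10 genes and the lists were chosen with earlier results of these data known. The rule for named genes took the 10, up to 3 genes with the lowest and 3 with the highest log2 ratio of each list in a class, and the 8 genes closest to the pair.

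Cells passed the limits given in the report. Doublets were called with Scrublet in scanpy 1.11.5. Cells of both libraries were clustered together (2000 variable genes, 30 components, 15 neighbours, Leiden resolution 1, leidenalg 0.10.2) without the chaperones and the 4 lists (107 genes, of which 1, Cct6a, matched no row). Clusters were named from 20 marker lists (191 genes) where at least 3 markers were found. UMIs were summed per class and library. The ratio of 2 sums has an exact conditional 95% interval (scipy 1.17.1). It was checked on simulated Poisson counts, the model that the interval assumes, so the check leaves out the spread between cells. Ratios over all genes used those with at least 50 UMIs, called at 1.5-fold. Marker and chaperone levels use Python 3.11.15, numpy 2.4.6 and matplotlib 3.10.9, and alignments biopython 1.88 on GENCODE vM21 transcripts. Alternatives were other UMI, mitochondrial and clustering settings, thinning to 1000 UMIs, means per cell, each library clustered alone and leaving out the richest cells.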

Additional observations from a re-analysis of the deposited data

Results flagged for a closer look

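The Hsp70 pair had a log2 ratio of THC to vehicle of 2.05 in T-like cells, while it was lower in the THC library in B-like, epithelial-like, fibroblast-like, goblet-like and smooth muscle-like cells. In the same T-like cells Hsp90ab1 had a log2 ratio of 0.39, against lower levels in epithelial-like and smooth muscle-like cells, and Hspa8 had 0.38, against lower levels in B-like, epithelial-like and smooth muscle-like cells. Hspb1 had a log2 ratio of 1.22 in B-like cells and 0.47 in smooth muscle-like cells, while it was lower in the THC library in epithelial-like and fibroblast-like cells. Each was picked out because its counting interval lay on the other side of 0 from the intervals of the named classes. Such an interval leaves out the spread between cells. Of the 47 THC UMIs of the pair in T-like cells, 33 were in 1 cell, and all 30 THC UMIs of Hspb1 in B-like cells were in 1 cell. The differences between classes were not tested, because each class has 1 library per group.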

How the results depend on the processing

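No paired analysis was possible because each group has 1 library. In fibroblast-like cells the log2 ratio of the pair, -1.09, was -0.88 as a mean over cells, -0.79 after thinning, -0.89 at Leiden resolution 0.5 and -0.86 with libraries clustered apart. The sum of the 10 genes, -0.39, was -0.49 after thinning, -0.28 at resolution 0.5, -0.45 with the same cluster mix and -0.21 without the richest 10% of cells, an alternative chosen after seeing the data. The count of 7 genes became 4 after thinning, with the minimum of 50 UMIs applied again to the thinned counts. A gene could thus leave the count without a smaller ratio. In epithelial-like cells the pair, -0.90, was -1.70 at a mitochondrial limit of 5%, -0.49 after thinning, -0.73 with chaperones in the clustering, -2.26 with libraries clustered apart and -1.38 without the richest 10%. The sum, -0.31, was -0.18 at 5% and -0.20 at 20%, -0.15 as a mean over cells, -0.27 after thinning, -0.84 apart, -0.27 with the same mix and -0.26 without the richest 10%. The count of 3 genes became 1 after thinning, with the minimum applied in the same way, and 9 with libraries clustered apart. The sign turned for epithelial-like Dnajb1 (0.021 thinned, 0.32 apart), Hspe1 (0.43 at 5%, 0.030 as a mean over cells) and Hspa8 (0.017 as a mean over cells), and for fibroblast-like Hspa1b (0.029 thinned) and Dnajb1 (0.16 without the richest 10%). It also turned for smooth muscle-like Hspa1a (0.033 thinned), B-like Hspb1 (-0.69 thinned), and T-like Hsp90ab1 (-0.18), Hspa8 (-0.23) and the sum (-0.26) with libraries clustered apart. Goblet-like values without the richest 10% were 0.25 for Hspa1b, 0.37 for the pair and 0.070 for the sum, and the sum was 0.16 after thinning. The cause was not tested. Of 279 values for single genes in fibroblast-like and epithelial-like cells under alternatives, 224 stayed within the main value's counting interval, 48 left it and 7 whose interval lay off 0 changed sign. Of 290 values in the other classes, 243 stayed, 38 left it and 9 changed sign. Of 144 levels and shares of cells under thinning or a 5% mitochondrial limit, 61 stayed within their interval and 83 did not. Depth limits T-like and B-like cells most, and intervals cover counting error only.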
